A study of Mus musculus with 8 samples.

Results

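The 8 genes Trpm1 to Trpm8 encode the melastatin-related transient receptor potential (TRPM) cation channels. They were taken by symbol from a count table of 24537 genes, in which all 8 have a row. The table holds RNA from pancreatic islets, the endocrine part of the gland, of 12-week-old male mice. Islets of 4 wild-type samples (WT) and of 4 samples labelled as Wfs1 knockout (Wfs1KO) were compared, and no sample was treated. Wfs1 is the gene of wolframin, which sits in the endoplasmic reticulum membrane and is mutated in Wolfram syndrome. The labels name neither the allele nor a promoter that would limit the knockout to 1 cell type, and do not say whether islets of several mice were pooled. If they were not separate animals, the p-values measure only the spread between these samples.

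TRPM channels assemble as tetramers in membranes and pass cations inward, which depolarises the cell. Trpm4 and Trpm5 open when cytosolic calcium rises and pass sodium and potassium, Trpm2 is opened by ADP-ribose and by oxidative stress, and Trpm3 by heat and by the steroid pregnenolone sulfate. In beta cells, the insulin-secreting cells, inward currents of this kind act beside closure of the ATP-sensitive potassium channel in bringing the membrane to the threshold of calcium entry.

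Exon counts per library lay between 15810830 and 27057617, and of 15733 genes that passed the filter on low counts, 18.9% were called at an adjusted p under 0.05, 8.49% lower and 10.4% higher in Wfs1KO. Wfs1 itself stood at 182, 156, 190 and 188 CPM (counts scaled to a common library size) in WT libraries 1 to 4, against 101.1, 105, 125 and 98.9 CPM in Wfs1KO libraries 1 to 4. All 4 Wfs1KO libraries lay below every WT library (log2 fold change -0.74, SE 0.08, adjusted p = 5.06e-05). Reads of Wfs1 were thus still counted in the Wfs1KO libraries, over all its exons together. Of the beta cell markers Ins1, Ins2, Slc2a2, Mafa, Ucn3, G6pc2, Nkx6-1 and Slc30a8, 7 of 8 fell and G6pc2 did not pass, and the islet hormone genes were abundant in all 8 libraries. All 8 endothelial markers rose (summed level 500.3 to 569 CPM in WT, 675 to 800.0 CPM in Wfs1KO), as did 4 of 9 tested markers of stellate and smooth muscle cells. No marker of acinar, ductal or macrophage cells passed.

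The TRPM genes lie on 5 chromosomes of mm10. Trpm1 (NM_001039104, 64153835 to 64269759, plus strand), Trpm4 (NM_175130, 45303155 to 45333780, minus strand) and Trpm5 (NM_020277, 143071529 to 143094642, minus strand) are on chromosome 7. Trpm6 (NM_153417, 18749983 to 18892511) and Trpm3 (NM_001035240, 22139117 to 22989882) are on the plus strand of chromosome 19. Trpm2 (NM_138301, 77907722 to 77969872, minus strand) is on chromosome 10, Trpm7 (NM_001164325, 126791558 to 126876261, minus strand) on chromosome 2 and Trpm8 (NM_134252, 88306712 to 88388851, plus strand) on chromosome 1. The matching GENCODE transcripts have between 25 exons (Trpm4, Trpm5) and 39 exons (Trpm6, Trpm7).

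Promoters of the 2 members with the smallest adjusted p are shown from RefSeq (GRCm38.p6, the same build as mm10), from 250 bases before to 50 bases after the start of each gene, 5′ to 3′ on the gene's strand. Trpm5 is at chr7:143094593-143094892 (minus strand) and Trpm2 at chr10:77969823-77970122 (minus strand). Capitals mark matches on either strand to TATAAA, the TATA element, and to the E-box CANNTG, the only searched motifs found in either promoter.
Trpm5: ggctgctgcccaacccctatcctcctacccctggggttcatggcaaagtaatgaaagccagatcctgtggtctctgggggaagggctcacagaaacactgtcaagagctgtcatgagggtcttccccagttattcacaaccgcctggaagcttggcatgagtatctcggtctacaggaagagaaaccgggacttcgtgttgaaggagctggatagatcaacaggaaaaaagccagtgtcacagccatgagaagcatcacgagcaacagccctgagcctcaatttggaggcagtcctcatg
Trpm2: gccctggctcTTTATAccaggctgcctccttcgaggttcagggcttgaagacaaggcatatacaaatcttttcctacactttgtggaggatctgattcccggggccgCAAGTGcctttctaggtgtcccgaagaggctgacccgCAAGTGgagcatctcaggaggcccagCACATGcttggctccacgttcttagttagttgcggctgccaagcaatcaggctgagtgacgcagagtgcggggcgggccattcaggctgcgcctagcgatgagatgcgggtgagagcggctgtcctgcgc
The Trpm5 window held 0 matches to TGCTGA (the core of the Maf element), CANNTG, TGACGTCA (the cAMP response element) or TATAAA. The Trpm2 window held 1 TATAAA and 3 CANNTG. That TATAAA reads on the strand opposite to the gene, at the end of the window farthest before the start. Of 32851 RefSeq promoter windows of this length, 19.5% held TGCTGA, 72.3% CANNTG, 1.79% TGACGTCA and 13.6% TATAAA. The Trpm5 window had 53.0% GC and 5 CpG, the Trpm2 window 58.3% GC and 15 CpG.

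Trpm5, the calcium-activated channel also known from taste cells, was the TRPM gene with the largest difference. It stood at 143, 131, 84.6 and 96.4 CPM in WT libraries 1 to 4, against 25.3, 29.6, 30.6 and 32.5 CPM in Wfs1KO libraries 1 to 4. Every Wfs1KO library lay below every WT library, and the WT libraries were spread more widely than the Wfs1KO libraries (114 ± 27.7 against 29.5 ± 3.04 CPM, SD, n = 4 each). The log2 fold change was -1.95 (SE 0.18, 95% interval -2.38 to -1.53, adjusted p = 0.000273), a 3.87-fold lower level. Of 15733 tested genes, 70 (0.445%) fell by at least 2-fold and 10 (0.0636%) by at least as much as Trpm5, itself included. Replicates 1 and 2 alone gave -2.35 and replicates 3 and 4 alone -1.53, both called, and the difference between these pairs was not tested. In bulk islets, fewer cells of a type and less RNA per cell cannot be told apart. The summed level of the beta cell markers was 143403 to 187437 CPM in WT and 87967 to 109836 CPM in Wfs1KO. Most of that sum is insulin RNA (WT means of 38988 CPM for Ins1 and 114882 CPM for Ins2). Single markers ranged from -2.38 (Mafa) to -0.21 (G6pc2, not called) in log2 fold change. What part fewer beta cells or less RNA per cell had in the lower Trpm5 was not tested.

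**Figure D1:**
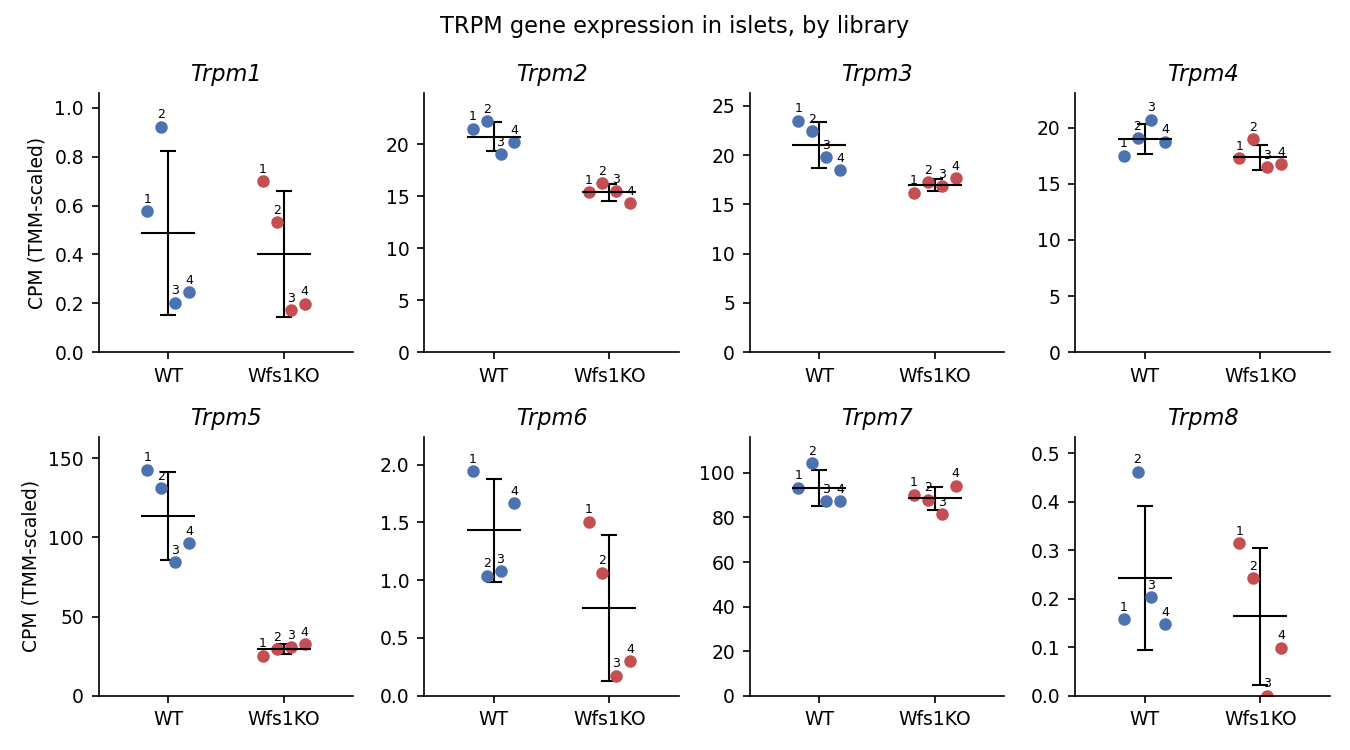
Level of each TRPM gene in CPM (linear axes from 0) in each library. Points are libraries with their replicate number, horizontal lines are means and error bars SD (n = 4 per genotype). Trpm5, Trpm2 and Trpm3 have every Wfs1KO point below every WT point, while the other 5 genes overlap. Of all tested genes, 22.6% had no overlap between the genotypes.

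Tuft cells, chemosensory cells of epithelia, also use Trpm5. Of 12 tuft cell markers 11 were in the table and none was at 0 in all libraries. Their summed level was 33.3 to 36.7 CPM in WT and 34.9 to 57.8 CPM in Wfs1KO. Of 8 tested markers, Dclk1 rose (log2 fold change 0.48, adjusted p = 0.0469), none fell and 7 did not pass. These counts are near the 10.4% called higher and 8.49% called lower over all tested genes. When WT library 1, 2 or 3 or Wfs1KO library 1, 2 or 4 was left out, Dclk1 was not called (adjusted p 0.0608 to 0.12). The tuft cell transcription factor gene Pou2f3 stood at 0.622 ± 0.207 CPM in WT and 0.364 ± 0.249 CPM in Wfs1KO, too low for the test.

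Counting was run with no strand option given, so a neighbour on the other strand could matter for Trpm5. The neighbour is Tssc4 (NM_020285, chromosome 7, 143069368 to 143071087 in mm10, plus strand), whose counted span ends 441 bases before that of Trpm5 begins. The 2 counted spans therefore share no base. Of 8 GENCODE transcripts of Trpm5, 2 share 217 and 3 exon bases with the pooled exons of all annotated Tssc4 transcripts, and neither carries the accession that was counted. The overlap of this pair therefore exists in other annotated Trpm5 transcripts, not between the spans counted here.

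Tssc4 stood at 87.8, 87.7, 87.7 and 97.1 CPM in WT libraries 1 to 4, against 67.8, 71.1, 87.8 and 65.4 CPM in Wfs1KO libraries 1 to 4. It fell by 0.31 on the log2 scale (adjusted p = 0.0218), with Wfs1KO replicate 3 inside the WT range. When WT library 4 or Wfs1KO library 1, 2 or 4 was left out, Tssc4 was not called (adjusted p 0.0653 to 0.0701). The log2 ratio of Trpm5 to Tssc4 within a library, with 0.5 CPM added to each, was 0.30 ± 0.39 in WT and -1.29 ± 0.22 in Wfs1KO. All 4 Wfs1KO ratios lay below the lowest WT ratio, and the mean difference was -1.59 (exact permutation test, two-sided p = 0.0286, the smallest that 4 against 4 samples allow). The fold change of Trpm5 was thus larger than that of Tssc4 in the same libraries. With same-numbered samples paired, an exact sign-flip test of 4 differences gave p = 0.125, the smallest it can give. On the far side of Tssc4, Cd81 (plus strand), whose span shares 937 bases with R74862 on the other strand, rose by 0.36 (adjusted p = 0.0254), and was not called when WT library 1 or 2 or Wfs1KO library 1 or 3 was left out (0.0622 to 0.0692). Kcnq1, the next gene upstream of Trpm5, stood at -0.24 (adjusted p = 0.602).

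**Figure D2:**
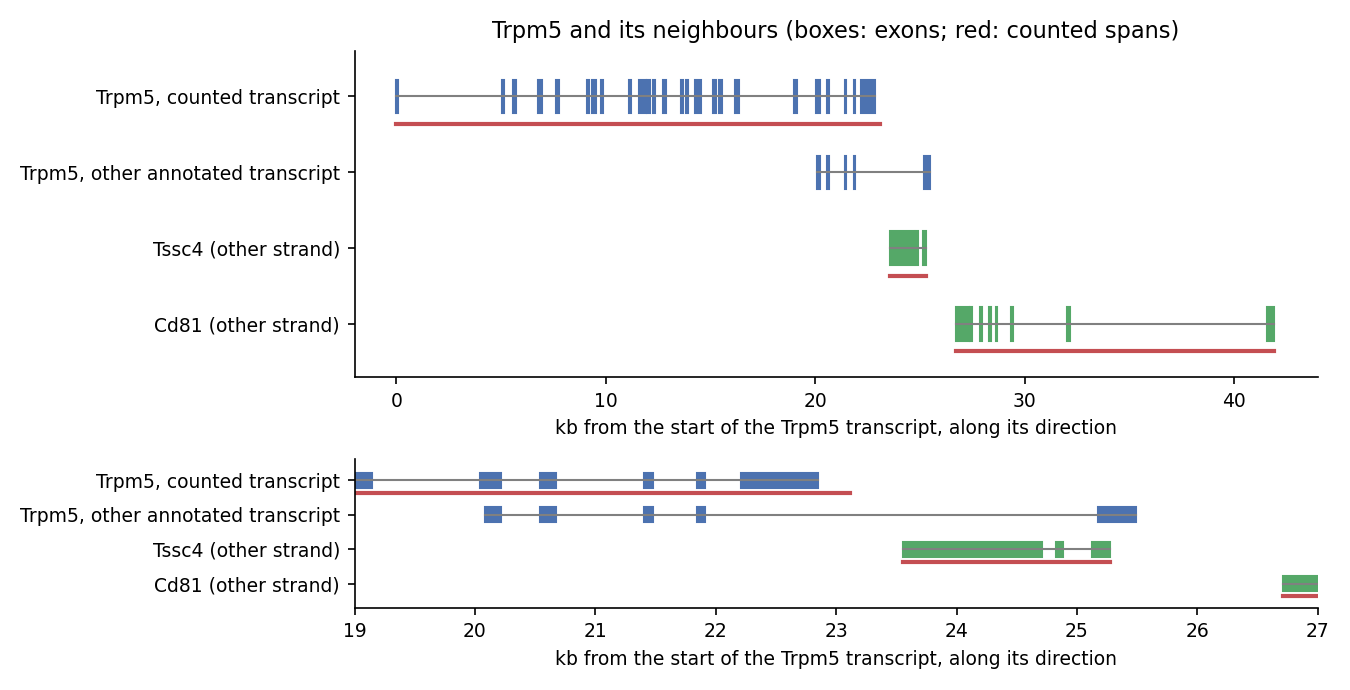
Trpm5 and the genes after its 3′ end, drawn in kb from the start of the Trpm5 transcript. Boxes are GENCODE exons and red lines counted spans. The lower panel enlarges the 441 bases between the red lines of Trpm5 and Tssc4, and shows another Trpm5 transcript, whose last exon lies partly over an exon of the Tssc4 transcript drawn.

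Trpm4, the other calcium-activated monovalent channel, stood at 17.5, 19.05, 20.7 and 18.7 CPM in WT libraries 1 to 4, against 17.3, 18.97, 16.5 and 16.7 CPM in Wfs1KO libraries 1 to 4. The groups overlapped, although 3 Wfs1KO libraries lay below every WT library. Its log2 fold change was -0.13 (SE 0.08, 95% interval -0.29 to 0.04, adjusted p = 0.281). Per kb of transcript, Trpm5 stood 5.88 ± 1.76 times as high as Trpm4 in WT and 1.65 ± 0.222 times in Wfs1KO (SD, n = 4 each). The lowest WT ratio was 3.95 and the highest Wfs1KO ratio 1.88, so the ratios did not overlap. Rpl14-ps1, a ribosomal protein pseudogene, lies within Trpm4 on the other strand (45324958 to 45325651) and shares 0 bases with the exons of the counted transcript. It rose from 137 ± 2.74 to 160 ± 12.5 CPM (log2 fold change 0.22, adjusted p = 0.0176), and as a copy of a ribosomal protein gene its own counts are uncertain.

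Trpm2, the ADP-ribose-gated channel, was lower in Wfs1KO by a smaller factor. It stood at 21.5, 22.2, 19.04 and 20.2 CPM in WT libraries 1 to 4, against 15.4, 16.3, 15.5 and 14.4 CPM in Wfs1KO libraries 1 to 4. The genotypes did not overlap, which holds for 22.6% of all tested genes. The log2 fold change was -0.43 (SE 0.07, 95% interval -0.59 to -0.28, adjusted p = 0.000977), a 1.35-fold lower level. Leaving out any 1 of the 8 libraries kept the call (adjusted p 0.00148 to 0.00479). The exons of Trpm2 share 44 bases with Gm22394 and 47 bases with Gm22871 on the same strand in GENCODE, genes with no row in the count table. Macrophages also use Trpm2. Of their 9 tested markers 0 rose and 0 fell, beside 10.4% higher and 8.49% lower over all tested genes. The summed level of these markers was 87.1 to 139 CPM in WT and 91.7 to 201 CPM in Wfs1KO.

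Trpm3, the heat- and steroid-gated channel, was lower by a smaller factor again. It stood at 23.5, 22.4, 19.8 and 18.5 CPM in WT libraries 1 to 4, against 16.2, 17.2, 16.8 and 17.7 CPM in Wfs1KO libraries 1 to 4. The genotypes did not overlap, but WT replicate 4 and Wfs1KO replicate 4 were close. The log2 fold change was -0.31 (SE 0.08, 95% interval -0.49 to -0.13, adjusted p = 0.017), a 1.24-fold lower level. Trpm3 was not called when WT library 1 (adjusted p = 0.0639) or Wfs1KO library 1 (0.0525) was left out. Its exons share 351 bases with C330002G04Rik on the other strand in GENCODE, a gene with no row in the count table. Replicates 1 and 2 alone gave -0.48 (adjusted p = 0.00279) and replicates 3 and 4 alone -0.15 (0.409).

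Trpm3 and Trpm1 each hold a microRNA gene in an intron on their own strand, at chr19:22750610-22750631 and chr7:64205831-64205852 for the mature sequences (plus strand, RefSeq, GRCm38.p6). The pair is shown because it links these 2 members by sequence, with the seed (bases 2 to 8) in capitals.
mmu-miR-204-5p: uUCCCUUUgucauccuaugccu
mmu-miR-211-5p: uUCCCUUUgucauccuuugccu
They share the seed UCCCUUU and differ at 1 of 22 positions. The rows Mir204 and Mir211 held 0 reads in all 8 libraries, made from poly(A) RNA, which allows up to 0.0419 CPM over the WT libraries and 0.0346 CPM over the Wfs1KO libraries for counting error. Mature microRNAs are not captured by this assay, so their level was not measured.

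Trpm7, a broadly expressed channel fused to a kinase that passes magnesium, zinc and calcium, stood at 93.4, 104, 87.3 and 87.2 CPM in WT libraries 1 to 4. The values in Wfs1KO libraries 1 to 4 were 90.2, 88.0, 81.5 and 94.3 CPM. The groups overlapped, and the log2 fold change was -0.07 (SE 0.07, adjusted p = 0.527). Its 95% interval, -0.22 to 0.07, was the narrowest among the tested members.

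Trpm6, the second kinase channel, known for magnesium uptake in kidney and gut, was counted at 16 to 37 reads per WT library and 3 to 43 reads per Wfs1KO library. Its levels were 1.94, 1.04, 1.08 and 1.67 CPM in WT libraries 1 to 4, against 1.51, 1.06, 0.173 and 0.297 CPM in Wfs1KO libraries 1 to 4. Wfs1KO replicates 3 and 4 lay below every WT library, and Wfs1KO replicates 1 and 2 inside the WT range. The log2 fold change was -0.86 (SE 0.53, 95% interval -2.01 to 0.28, adjusted p = 0.299). Replicates 3 and 4 alone gave -2.52 (adjusted p = 0.00847) and replicates 1 and 2 alone -0.23 (0.752). The difference between these pairs was not tested.

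Trpm1, known from retinal bipolar cells and melanocytes, and Trpm8, the cold- and menthol-gated channel of sensory neurons, were counted at 3 to 20 and 0 to 9 reads per library. Trpm1 stood at 0.578, 0.924, 0.203 and 0.245 CPM in WT libraries 1 to 4, against 0.700, 0.532, 0.173 and 0.198 CPM in Wfs1KO libraries 1 to 4. In both genotypes replicates 1 and 2 were above replicates 3 and 4. Its log2 fold change was -0.23 (SE 0.60, 95% interval -1.52 to 1.07, adjusted p = 0.844). That interval takes in 2-fold changes in both directions, and no difference was detectable at this depth. Trpm8 was the only member below the filter, at 0.158, 0.462, 0.203 and 0.147 CPM in WT libraries 1 to 4, against 0.315, 0.242, 0 and 0.0990 CPM in Wfs1KO libraries 1 to 4. The exons of Trpm8 share 388 bases with 4930453O03Rik on the other strand in GENCODE. The 0 reads of Wfs1KO library 3 allow up to 0.173 CPM. Without the filter its log2 fold change was -0.47 (95% interval -2.13 to 1.19, adjusted p = 0.824).

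The share of all sequenced tags that fell in exons moved with the replicate number as well. It was 65.3%, 60.0%, 73.3% and 71.9% in WT replicates 1 to 4 and 62.2%, 66.9%, 76.5% and 76.2% in Wfs1KO replicates 1 to 4. Replicates 1 and 2 of both genotypes, where Trpm1 was higher, were thus the ones with the lower exon share. Trpm2, Trpm3, Trpm5 and Trpm7 were also higher in WT replicates 1 and 2 than in WT replicates 3 and 4, unlike Trpm4, Trpm6 and Trpm8. Within Wfs1KO this order was seen for Trpm4, Trpm6 and Trpm8, and not for Trpm2, Trpm3, Trpm5 and Trpm7. The part of the exon share in the level of any member was not tested.

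Divided by transcript length, Trpm5 was the most abundant member in WT islets, at 26.1 ± 6.36 CPM per kb (SD, n = 4). Next came Trpm7 at 13.1 ± 1.14, Trpm4 at 4.51 ± 0.316, Trpm3 at 3.13 ± 0.345 and Trpm2 at 2.86 ± 0.194 CPM per kb. Trpm6, Trpm1 and Trpm8 followed at 0.222, 0.0860 and 0.0635 CPM per kb. Ranges of neighbours in this order overlapped between Trpm3 and Trpm2, Trpm6 and Trpm1, and Trpm1 and Trpm8 over the 4 WT libraries, and not between the others. With the longest GENCODE transcript as the length, Trpm3 stood at 1.71 CPM per kb, below Trpm2.

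In Wfs1KO islets Trpm7 was first at 12.5 ± 0.752 CPM per kb and Trpm5 second at 6.77 ± 0.698 CPM per kb. Their ranges did not overlap in either genotype, and the order of the other 6 members by mean was the same in both. In Wfs1KO the ranges of Trpm6 and Trpm1, and of Trpm1 and Trpm8, overlapped, so the order of these members is not resolved there. Trpm5 made up 51.6% ± 5.10 of the summed per-length level of the 8 genes in WT and 24.0% ± 2.17 in Wfs1KO. The sum itself was 50.1 ± 7.58 CPM per kb in WT and 28.2 ± 1.07 in Wfs1KO. Without Trpm5 it was 24.0 ± 1.55 and 21.5 ± 0.919 CPM per kb, with ranges of 22.6 to 26.1 in WT and 20.1 to 22.02 in Wfs1KO, which do not overlap.

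**Figure D3:**
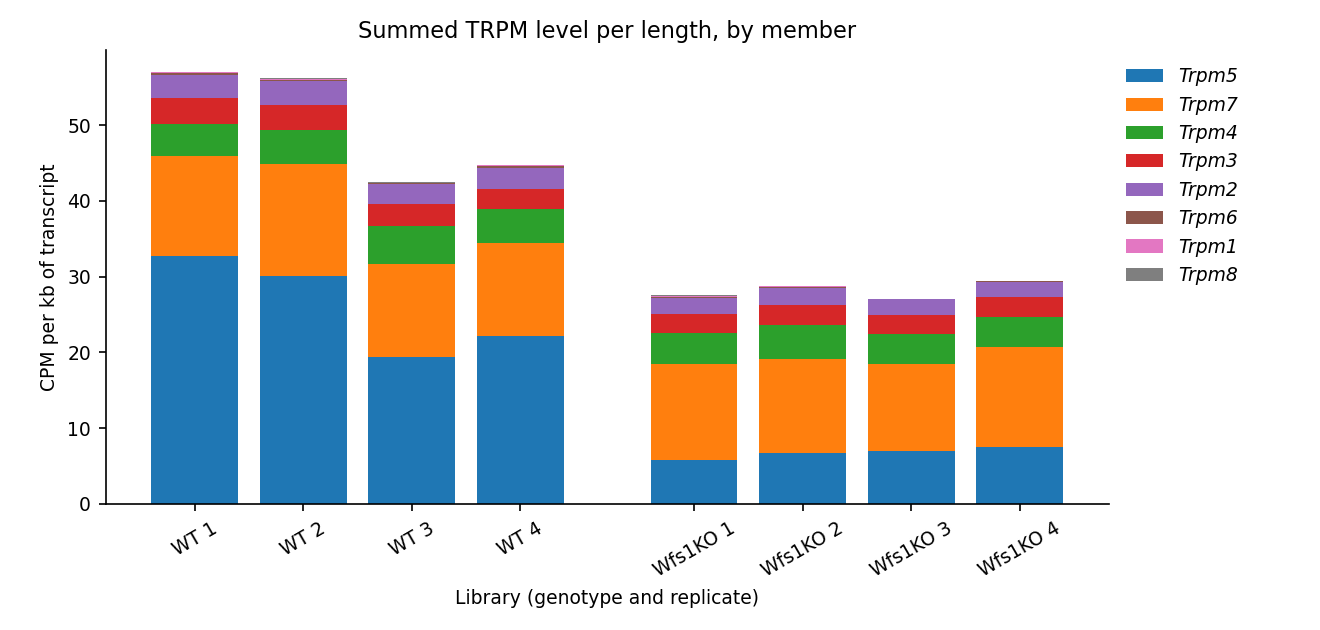
Summed level of the TRPM genes in CPM per kb of transcript (linear axis from 0) in each library, stacked by member. The Trpm5 segment spans 19.4 to 32.8 CPM per kb in WT and 5.81 to 7.46 in Wfs1KO, while the Trpm7 segment stays between 11.5 and 14.7 in all 8 libraries.

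Of the 8 members, then, 3 fell (Trpm5, Trpm2 and Trpm3), none rose, 4 did not pass and 1 was below the filter, beside 8.49% lower and 10.4% higher calls over all tested genes. The median log2 fold change of the 7 tested members was -0.31, beside 0.01 over all tested genes. Among the authors' own values, the authors' deposited table gives log2 fold changes of -1.74 for Trpm5 (adjusted p = 3.56e-40), -0.42 for Trpm2 (3.72e-05) and -0.30 for Trpm3 (0.0124). For Trpm4 and Trpm7 the authors' deposited table gives adjusted p-values of 0.342 and 0.479. The same 3 genes passed an adjusted p of 0.05 there.

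Other TRP channels were mostly not called. Of 20 genes of the TRPC, TRPV, TRPA, mucolipin and polycystin groups 15 were tested, of which 1 fell, 0 rose and 14 did not pass (median 0.06), beside 18.9% called over all tested genes. The 1 that fell was Mcoln3, a mucolipin of endosomes and lysosomes, from 6.58 ± 0.415 to 4.10 ± 0.531 CPM (log2 fold change -0.69, SE 0.13, adjusted p = 0.0024). The count of called genes became 2 without Wfs1KO replicate 4. The most abundant per length in WT were the polycystin channel gene Pkd2 (20.03 CPM per kb), the lysosomal channel gene Mcoln1 (18.5) and Trpc1 (11.3). Their log2 fold changes were 0.13, 0.07 and -0.19, with adjusted p-values of 0.119, 0.508 and 0.074. The WT mean of Trpm5 per length lay above these 3 means, although its lowest WT library, at 19.4 CPM per kb, lay below the mean of Pkd2.

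**Figure D4:**
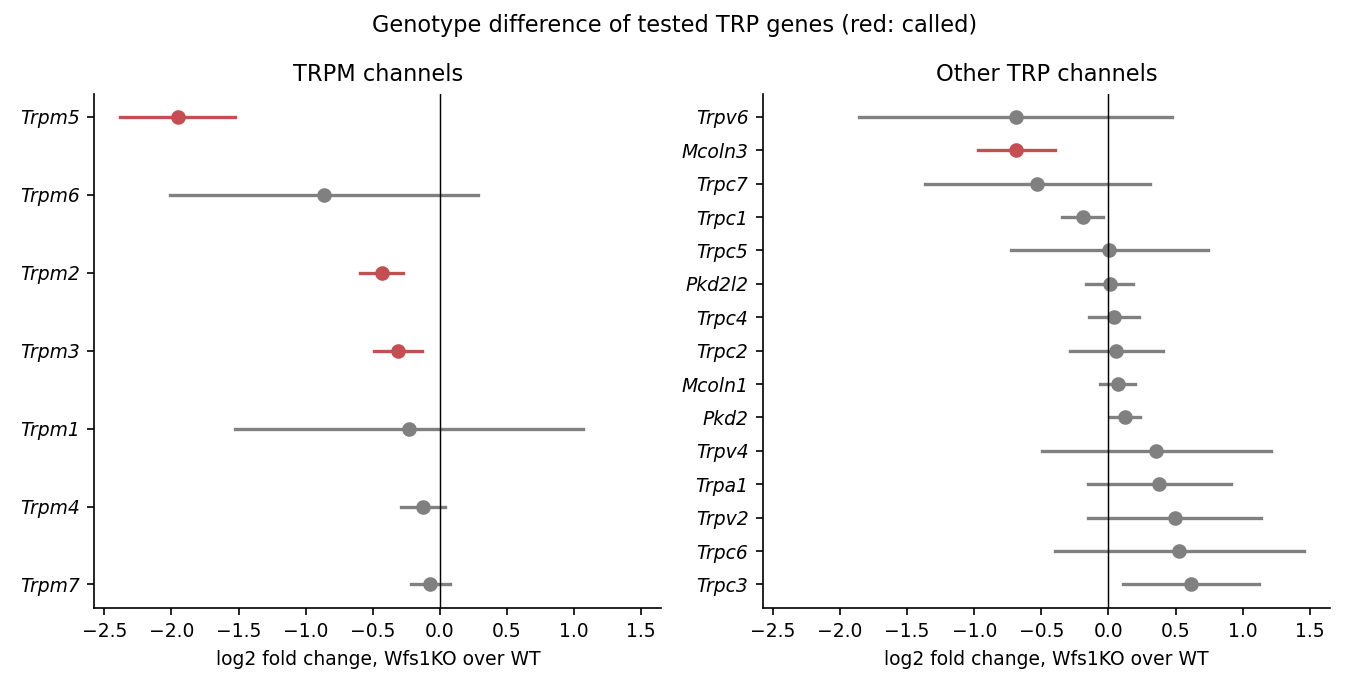
Log2 fold change of Wfs1KO over WT for the 7 tested TRPM genes and the 15 tested other TRP genes. Points are estimates, bars 95% intervals (n = 4 per genotype), and red marks genes with an adjusted p under 0.05. Trpm5, at -1.95, has its whole interval below that of every other called gene shown.

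In taste cells Trpm5 is opened by calcium released through the receptor encoded by Itpr3, after G protein and phospholipase signalling. Of 11 genes of that cascade 10 were in the table and 4 were tested, of which 1 fell, 0 rose and 3 did not pass (median 0.13), too few to set against the 18.9% of all tested genes. Itpr3, an IP3 receptor of the endoplasmic reticulum, fell from 204 ± 5.23 to 142 ± 11.7 CPM (log2 fold change -0.52, adjusted p = 5.93e-05). The sweet and umami receptor subunit gene Tas1r3 stood at 4.17 ± 0.587 and 3.85 ± 0.661 CPM, and the phospholipase gene Plcb2 at 1.37 ± 0.475 and 2.03 ± 0.865 CPM. The taste G protein gene Gnat3 was below the filter at 0.114 ± 0.0468 and 0.133 ± 0.113 CPM.

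Genes of incretin and cAMP signalling, which is known to act on Trpm2 in beta cells, numbered 16 in the test. Of these 4 fell, 2 rose and 10 did not pass (median -0.11), beside 8.49% lower and 10.4% higher over all tested genes, so the count that rose is near the background. The GIP receptor gene Gipr (-0.85, adjusted p = 3.98e-05), the GLP-1 receptor gene Glp1r (-0.54), the cAMP sensor gene Rapgef4 (-0.21) and the adrenergic receptor gene Adra2a (-0.22) fell. The cAMP sensor gene Rapgef3 (0.50, adjusted p = 0.00219) and the G protein gene Gnas (0.26) rose. Glp1r lost its call with the replicate number as a block (adjusted p = 0.0762). Adra2a was not called when WT library 1, 3 or 4 or Wfs1KO library 1 or 2 was left out (0.0521 to 0.0784). Gnas was called only when WT library 4 or Wfs1KO library 2 was the one left out, and otherwise had an adjusted p of 0.0624 to 0.126. With DESeq2 size factors Gnas had an adjusted p of 0.055.

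Of 10 genes that make or break down ADP-ribose, the ligand of Trpm2, 2 rose, 0 fell and 8 did not pass (median 0.06), a share of calls near the 18.9% of all tested genes. Cd38, an ectoenzyme that makes ADP-ribose from NAD, rose from 7.92 ± 1.21 to 11.9 ± 2.03 CPM (log2 fold change 0.59, adjusted p = 0.00783). Nudt9, an ADP-ribose hydrolase related to the Trpm2 C terminus, rose from 22.6 ± 1.42 to 28.7 ± 2.03 CPM (0.35, adjusted p = 0.00335). Parp1, the main poly(ADP-ribose) polymerase, stood at 0.11 (adjusted p = 0.259). Endothelial markers, all 8 of which rose, are higher in the same libraries, and their part in these rises was not tested.

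Of 14 genes of magnesium transport, the function shared by Trpm6 and Trpm7, 4 rose, 1 fell and 9 did not pass (median 0.09), beside 10.4% higher and 8.49% lower over all tested genes. Magt1, which has been described as a magnesium transporter and is a subunit of the oligosaccharyltransferase, rose by 0.45 (292 ± 14.9 to 399 ± 20.9 CPM, adjusted p = 0.000168). The transporter gene Slc41a2 (0.48), Cnnm2 (0.27) and the phosphatase gene Ptp4a2 (0.21) rose, and Cnnm1 fell by 0.47 on the log2 scale. The count of called genes was 3 without Wfs1KO replicate 3 or Wfs1KO replicate 4. Ptp4a2 lost its call without either (adjusted p 0.0639 to 0.0749). Cnnm2 was not called when either of these or WT library 2, 3 or 4 was left out (0.0664 to 0.0978).

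Of 17 other channels that can depolarise cells and their subunits, 1 rose, 1 fell and 15 did not pass (median -0.05). Over all tested genes 10.4% were called higher and 8.49% lower, so both counts are near the background. Unc80, a subunit of the sodium leak channel, fell from 461 ± 36.4 to 382 ± 16.9 CPM (-0.27, adjusted p = 0.0108), and Lrrc8b, a subunit of volume-regulated anion channels, rose by 0.61 (adjusted p = 0.00371). Replicates 1 and 2 alone gave 6 called genes in this list and replicates 3 and 4 alone 0.

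Genes with the profile most like that of each called member were found over the 8 libraries, by the root mean square distance between log2(CPM + 0.5) values centred on each gene's own mean. The added 0.5 CPM shrinks the differences of genes at low levels. These profiles share their libraries, and so their depth and genotype. The genes named were picked for the smallest distances, so each lies below the median distance by construction. For Trpm5 the 5 nearest were the calcium sensor gene Vsnl1 (distance 0.175), Nnat (0.193), Tmem215 (0.231), T2 (0.244) and Rprml (0.246), beside a median distance of 0.998 over all tested genes. Rprml, at 2.04 CPM in WT and 0.142 CPM in Wfs1KO, is near on this scale only through the added 0.5 CPM, since its fitted log2 fold change was -3.82 against -1.95 for Trpm5. Nnat and T2 each overlap a gene on the other strand. Vsnl1 stood at 12.5 ± 1.94 CPM in WT and 3.55 ± 0.380 CPM in Wfs1KO, and Nnat at 47.6 ± 12.6 and 15.1 ± 1.40 CPM. For Trpm2 the nearest were 1500015A07Rik (0.0548), the transferrin receptor gene Tfrc (0.0605), Fbxo41 (0.0653), Dtx3l (0.0658) and Rab37 (0.0683), with a median of 0.272. Dtx3l overlaps a gene on the other strand. For Trpm3 they were the cathepsin gene Ctso (0.0412), Unc80 (0.0453), the microtubule protein gene Map2 (0.0515), the transcription factor gene St18 (0.0515) and Trim56 (0.0574), with a median of 0.237.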

How the data were processed

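The submitters' processing notes list bcl2fastq, STAR 2.6.0a, HOMER 4.11.1 and DESeq2 as tools and mm10 as the build. Per the file headers, HOMER counted tags over RefSeq exons, kept 1 row for each gene, and neither scaled the numbers nor set a strand. The authors thus deposited raw counts. The log2 fold changes and p-values deposited by the authors are used as given, and DESeq2 is the only testing tool those notes list. Transformed log2 values that the authors deposited per library were not used.

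The test was edgeR 4.0.16 in R 4.3.3 (library sizes scaled by TMM, filterByExpr with a minimum count of 10 and a minimum total of 15, robust quasi-likelihood F-test, Benjamini-Hochberg over 15733 genes), with genotype as the only term. Genes with an adjusted p under 0.05 are called, and "rose" and "fell" are used of these only. SE is the size of the log2 fold change over the root of F. CPM uses the TMM-scaled library sizes. The common biological coefficient of variation was 10.7%. On simulated counts of this comparison (15552 genes), 75% of genes changed by 0.5 and 100% of genes changed by 2 on the log2 scale were recovered. Of the called genes, 7.89% had not been changed. The changed genes, 100 of each size, were drawn from well-counted genes only, and every gene was given the common coefficient of variation. These shares therefore do not describe genes with few reads or with a wider spread between libraries. Intervals of log2 fold changes come from the quasi-likelihood fit, and so take in the spread between these libraries as well as counting error. Limits from 0 counts cover counting error only.

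The members and the 18 lists were chosen with earlier results of these data known. Named genes were all members, up to 6 called genes of each pathway list, the 3 other TRP genes most abundant per length, and the 5 profiles nearest to each called member. Other genes (Tas1r3, Plcb2, Gnat3, Parp1, Cd81, Kcnq1) were named after their values were seen. Markers rose in the lists for Schwann cells (1 of 5 tested), melanocytes (1 of 2), alpha cells (1 of 6), and delta and PP cells (3 of 4). None fell, which in lists this short is near the background. Over all tested genes 10.4% were called higher and 8.49% lower. Same-numbered WT and Wfs1KO samples deviated together across genes (correlations 0.153, 0.443, 0.269 and 0.188 on edgeR's log scale, but 0.0599 for number 1 with 0.5 CPM added). Samples of different numbers were not compared in this way, and the labels do not say what a number marks. The reported fit therefore does not pair samples, and pairing by number is given as an alternative. Genes are not independent replicates. Alternatives used DESeq2 1.42.0 and limma 3.58.1.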

Additional observations from a re-analysis of the deposited data

How the results depend on the processing

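Trpm5 and Trpm2 kept direction and call in all 19 alternative fits, and Trpm4 and Trpm7 were called in none of these. Trpm1 was called in none of the 16 fits that gave it a value, and stood at 0.18 with limma-voom, against -0.23 as reported. With the replicate block, Trpm5 stood at -1.93 (adjusted p = 0.00978), Trpm2 at -0.43 and Trpm3 at -0.31, and no member's call changed. Trpm3 missed the threshold with replicates 3 and 4 only (-0.15) and without WT replicate 1 or Wfs1KO replicate 1. Trpm6 passed with replicates 3 and 4 only (-2.52). Leaving out 1 library gave log2 fold changes of -0.67 to 0.26 for Trpm1, -0.47 to -0.40 for Trpm2, -0.37 to -0.25 for Trpm3, -0.17 to -0.08 for Trpm4, -2.07 to -1.82 for Trpm5, -1.46 to -0.58 for Trpm6 and -0.11 to -0.01 for Trpm7, with 2 to 3 members called. The paired difference in the log2 ratio of Trpm5 to Tssc4 was -1.59, with an exact sign-flip p = 0.125, the smallest that 4 pairs allow. Without pairing, leaving out 1 library gave mean differences of -1.71 to -1.46.

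Over all genes, 2970 were called, 1846 (964 higher, 882 lower) with replicates 3 and 4 only, 1744 (962 higher, 782 lower) at an adjusted p under 0.01, and 2387 to 2734 without 1 library (1354 to 1460 higher, 1019 to 1299 lower). Called genes of the other TRP channels numbered 3 with limma-voom, 3 with replicates 1 and 2 only, 2 with the 20 most abundant genes left out, 2 with a block of replicates 1 and 2 against 3 and 4, and 1 to 2 without 1 library. The other depolarising channels gave 6 with replicates 1 and 2 only, 0 with replicates 3 and 4 only and 1 at an adjusted p under 0.01. Incretin and cAMP genes gave 3 with replicates 3 and 4 only, and magnesium transport genes gave 3 at an adjusted p under 0.01 and 3 to 5 without 1 library. Per length, Trpm3 stood at 1.71 CPM per kb with the longest GENCODE transcript. The cause of these differences was not tested, apart from the fewer samples or the stricter threshold that define them. At 0 to 43 reads per library, Trpm1, Trpm6 and Trpm8 allow no firm statement.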
